A study of Mus musculus with 6 samples.

Results

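Malat1, Neat1, Meg3, Rian, Mirg, Miat and Snhg11 are 7 long noncoding RNAs, known as transcripts that for the most part stay in the nucleus. Every probe set whose platform gene symbol was 1 of these names was taken, which gave 15 of 22626 probe sets on array type A, for 5 of the RNAs among 12393 named genes, and 15 of 22511 on array type B, for all 7 among 9607 named genes. The RNAs were selected on the differences that earlier results of these data had shown between the same pools, so their values are given as a description, with no test. The arrays measured whole-tissue RNA, and whether an RNA lay in the nucleus was not measured.

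The study compared mouse lumbar spinal cord, segments L3 to L5, at postnatal day 27. Each of 3 pools held total RNA of 3 cords. Pool 1 (RNA 450) and pool 2 (RNA 500) are labelled Egr3-deficient, and the remaining pool (RNA 499) is labelled wild type. Egr3 encodes an early growth response zinc-finger transcription factor, and mice lacking it are known for the loss of muscle spindles, the stretch receptors whose motor supply comes from fusimotor neurons. The title of the series names genes of spinal fusimotor neurons as its object. An acclimatization treatment is named for pool 2 and for the wild-type pool but not for pool 1. Allele, strain and sex were not stated. Each pool was hybridised once to each array type as a separate labelled extract, which makes 6 arrays, and every comparison set 2 pools against 1. The single Egr3 probe set on A read 24.9 in pool 1 and 52.7 in pool 2, against 40.6 in wild type. Its counterpart on B read 209.6 and 107 in the pools, against 75.3 in wild type. Neither set was lower in both pools than in wild type, and where these probes lie relative to the altered part of the gene is not given, so the pools are called here by their labels.

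Malat1 is an abundant transcript that gathers at nuclear speckles, the bodies that store splicing factors. Neat1, its neighbour, is the RNA around which paraspeckles assemble. Meg3, Rian and Mirg are transcribed in one direction from the maternal copy of the imprinted Dlk1–Dio3 region, where they carry small nucleolar RNAs and microRNAs, while the protein genes of that region are read from the paternal copy. Miat, also called Gomafu, is a neuronal RNA that forms spots of its own in the nucleus and binds splicing factors. Snhg11 is a small nucleolar RNA host gene that is strongly expressed in neurons.

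In the RefSeq annotation Malat1 and Neat1 lie next to each other on chromosome 19, with 0 annotated genes between them. Meg3, Rian and Mirg lie in this order on chromosome 12. Between Meg3 and Rian are 16 annotated genes, 15 of them microRNA genes. Between Rian and Mirg are 40, of which 30 are microRNA and 8 are small nucleolar RNA genes. Only genes that lie wholly between were counted. Miat lies on chromosome 5 and Snhg11 on chromosome 2. RefSeq places 14 microRNA hairpins with 28 mature products inside the Meg3, Rian and Mirg genes: 1 hairpin in Meg3, 3 in Rian and 10 in Mirg. The arrays did not measure these products. They are shown because the host transcripts they are cut from are the ones measured, with bases 2 to 8, the seed that pairs with targets, in capitals.
miR-770-5p, in Meg3: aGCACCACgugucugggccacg
miR-341-3p, in Rian: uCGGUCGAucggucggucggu
miR-370-3p, in Rian: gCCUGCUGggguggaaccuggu
miR-453, in Mirg: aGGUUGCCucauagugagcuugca
miR-496a-5p, in Mirg: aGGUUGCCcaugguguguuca
miR-409-3p, in Mirg: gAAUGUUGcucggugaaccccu
miR-369-3p, in Mirg: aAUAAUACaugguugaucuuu
miR-410-3p, in Mirg: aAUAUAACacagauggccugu
The sequences are those of RefSeq on GRCm38.p6, plus strand of chromosome 12. miR-453 and miR-496a-5p have the same seed, and they are the only pair among the 28 that does.

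RefSeq promoter windows, 250 bases before to 50 after a transcript start, were at hand for 6 of the 7 RNAs, with 2 windows for Meg3. The windows of 3 RNAs, those with the lowest median values relative to wild type on A, are shown 5′ to 3′ on the strand of the gene, at chr12:109540746-109541045 (plus strand) for Meg3, chr19:5802623-5802922 (minus strand) for Malat1 and chr2:158375463-158375762 (plus strand) for Snhg11, all on GRCm38.p6. Capitals mark a cyclic AMP response element and a TATA element.
Meg3: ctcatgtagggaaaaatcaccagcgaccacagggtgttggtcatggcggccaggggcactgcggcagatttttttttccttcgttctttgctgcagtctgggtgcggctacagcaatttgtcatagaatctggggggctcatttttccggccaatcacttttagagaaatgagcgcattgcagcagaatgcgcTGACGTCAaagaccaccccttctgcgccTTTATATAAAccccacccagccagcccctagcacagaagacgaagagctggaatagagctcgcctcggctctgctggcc
Malat1: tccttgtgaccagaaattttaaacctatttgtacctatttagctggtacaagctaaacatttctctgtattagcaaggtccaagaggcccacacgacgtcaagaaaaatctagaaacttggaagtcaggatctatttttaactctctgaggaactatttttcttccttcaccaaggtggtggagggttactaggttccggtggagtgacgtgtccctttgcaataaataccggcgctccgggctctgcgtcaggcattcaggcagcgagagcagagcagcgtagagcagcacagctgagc
Snhg11: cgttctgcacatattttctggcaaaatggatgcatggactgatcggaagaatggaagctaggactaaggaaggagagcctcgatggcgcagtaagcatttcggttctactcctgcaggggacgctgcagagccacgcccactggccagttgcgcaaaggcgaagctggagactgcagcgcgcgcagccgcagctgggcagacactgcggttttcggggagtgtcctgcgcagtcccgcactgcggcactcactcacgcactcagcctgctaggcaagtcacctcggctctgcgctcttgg
Both strands of the 7 windows were searched for 3 motifs. The binding motif of the EGR family, GCGNGGGCG, was in 0 of the 7, against 5.55% of the 32851 windows in the table. The cyclic AMP response element TGACGTCA was in 1, the Meg3 window above, where it begins 57 bases before the start, and in 1.79% of all windows. TATAAA was in the same Meg3 window, 29 bases before the start, where the matches on both strands overlap, and in 13.6% of all windows. A match to these letters is a description of the window and shows no binding. GC content was 53.7% in the Meg3 window above, and over the 7 windows it ran from 47.0% for Malat1 to 64.3% for Miat, where the quartiles of all windows were 45.7% and 61.7%.

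On array type A all 15 probe sets of the RNAs were below the wild-type pool in both pools labelled Egr3-deficient. The share of all 13576 kept probe sets that did the same was 34.8%, where kept means a mean log2 intensity at or above the 40th percentile of the table. At least 2-fold lower in both pools were 10 of the 15, against 4.35% of all. The median log2 difference, averaged over both pools, was -1.66 for the 15 probe sets and 0.11 for all kept ones. Differences are of log2(intensity + 16) after quantile normalization, pool minus wild type, and understate the change of dim probe sets. Since the RNAs were chosen on this contrast, nothing is read from these shares. In bulk tissue fewer cells of a type and less RNA per cell cannot be told apart.

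On array type B the picture was more mixed. Of the 15 probe sets there 13 were lower in both pools and 2 were higher in both, a Neat1 set and a Mirg set. A Miat set was too dim to be kept. Among the 14 kept, 12 were lower in both pools, against 36.6% of the 13507 kept probe sets of that array type. The 5 kept sets at least 2-fold lower in both pools, against 1.8% of all, were all of Meg3. That count depends on the normalization: it was 1 with the deposited scaling alone, 0 with median centring and 8 after scaling on the 100 probe sets that both array types carry. The median log2 difference over all 15 was -1.15, against 0.0 for all kept probe sets.

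**Figure D1:**
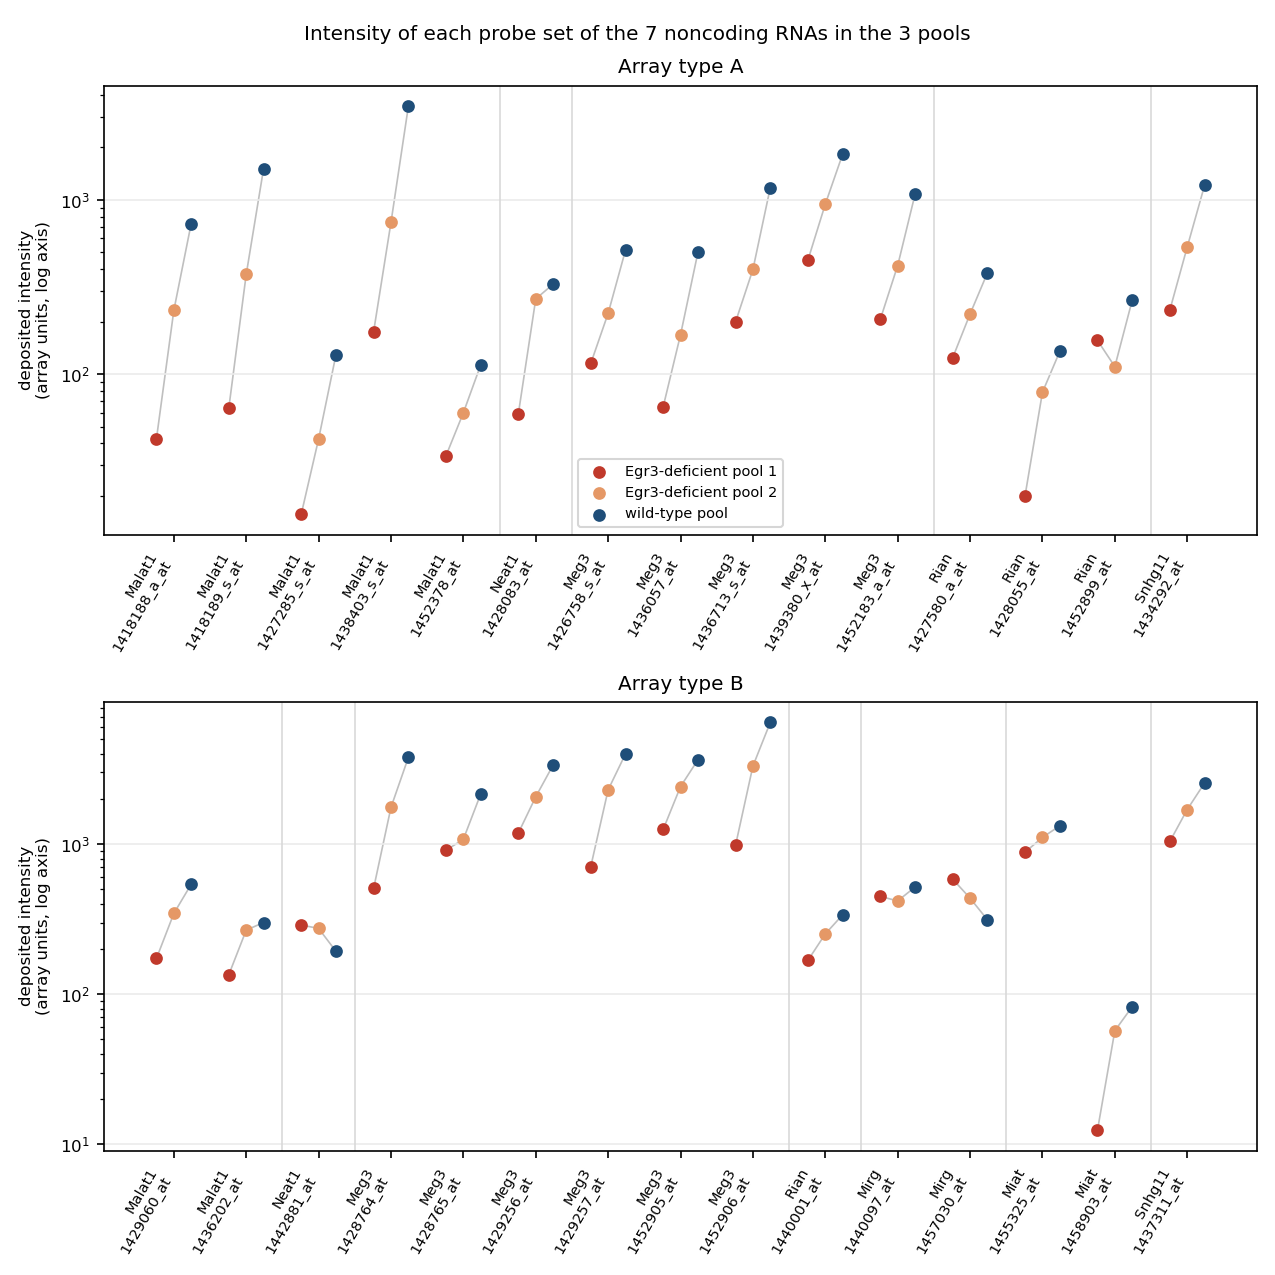
Deposited intensity (array units, log axis) of each of the 30 probe sets of the 7 RNAs in pool 1, pool 2 and the wild-type pool, which are joined by a grey line, on array type A above and B below. Each point is 1 pool on 1 array. All lines on A end highest at wild type, from Malat1 1452378_at, at 34.0 and 59.98 in the pools, against 113, to 1438403_s_at, at 175 and 742, against 3430.2, and on B the Neat1 set and the Mirg set 1457030_at end lowest at wild type.

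Malat1 had the lowest values relative to wild type of the RNAs on A. Probe set 1438403_s_at read 175 in pool 1 and 742 in pool 2, against 3430.2 in wild type. Pool 1 thus held 5.1% and pool 2 21.6% of the wild-type intensity, and the log2 differences were -4.21 and -2.24, with a mean of -3.23 ± 1.39 (SD, n = 2 pools). The set 1418189_s_at read 64.1 and 373 in pools 1 and 2, against 1508 in wild type, a mean log2 difference of -3.15 ± 1.55 (SD, n = 2 pools). From the same source sequence, 1418188_a_at read 42.6 and 232 in the pools, against 730.3 in wild type (mean -2.59 ± 1.39 SD, n = 2 pools). In all of these the pool order was the same, with pool 1 lowest, pool 2 between and wild type highest.

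The other Malat1 sets on A share a source sequence and differed less. Probe set 1427285_s_at read 15.7 and 42.4 in the pools, against 129 in wild type, with a mean log2 difference of -1.66. On the linear scale that is 12.2% and 32.9% of wild type. Probe set 1452378_at read 34.0 and 59.98 in the pools, against 113 in wild type, or 30.01% and 53.0% of it, and its mean log2 difference of -0.96 was the smallest of the 5. Probe sets of 1 RNA thus ran in the same direction with sizes from -0.96 to -3.23. Where in the transcript each set lies was not examined here, since no genome was used. A name ending in _s_at marks a set whose probes match more than 1 transcript, so such a reading may hold more than Malat1.

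On B the Malat1 sets gave smaller differences. Probe set 1429060_at read 173 and 345 in the pools, against 539.7 in wild type, with log2 differences of -1.58 and -0.71. Probe set 1436202_at read 135 and 267 in the pools, against 300.2 in wild type. Its difference in pool 2 was only -0.18, and pool 2 read 88.8% of wild type. In neither set did the gap between pool 2 and wild type exceed the gap between the pools themselves.

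Neat1 did not follow Malat1. Its set on A, 1428083_at, read 59.3 in pool 1 and 269.7 in pool 2, against 328 in wild type. Pool 1 was far lower at 18.1% of wild type, while pool 2 stood at 82.1%, so the mean log2 difference of -1.17 was smaller than the SD of 1.28 between the 2 pools. It was the only 1 of the 30 sets for which that held. The Neat1 set on B, 1442881_at, read 289 and 274 in the pools, against 193 in wild type, with log2 differences of 0.61 and 0.52. Both pools were above wild type there, and the mean of 0.56 became -0.05 after scaling on the shared probe sets. The Neat1 sets therefore disagreed in direction between array types, and neither gave a difference that was clear of both the pool spread and the scaling.

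Meg3 was lower in both pools on all of its 11 probe sets. On A the set 1439380_x_at read 450.4 and 943 in the pools, against 1826 in wild type, or 24.7% and 51.7%. The set 1436713_s_at read 199 and 398 in the pools, against 1173 in wild type, with a mean log2 difference of -2.04 ± 0.65 (SD, n = 2 pools). Close to it, 1436057_at read 64.8 and 168 in the pools, against 498 in wild type (mean -2.03 ± 0.77 SD, n = 2 pools). The sets 1452183_a_at and 1426758_s_at, made from 1 source sequence, had mean log2 differences of -1.85 and -1.56. The 5 Meg3 sets on A lay close together, from -2.04 to -1.56, a narrower range than that of Malat1. The names of 1436713_s_at and 1426758_s_at also end in _s_at, so their readings may hold more than Meg3. The same may be true of 1439380_x_at.

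On B, 3 of the 6 Meg3 sets had pool 1 far below pool 2. The set 1452906_at read 981 and 3306 in pools 1 and 2, against 6455 in wild type, and its log2 differences were -3.31 and -1.39. Set 1428764_at read 507 and 1756 in the pools, against 3773 in wild type (-3.33 and -1.52). Set 1429257_at read 708 and 2297 in the pools, against 3988 in wild type (-2.95 and -1.15). Pool 1 stood at 13.4% to 17.8% of wild type in these 3, and pool 2 at 46.5% to 57.6%.

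The other Meg3 sets on B showed less distance between the pools. Set 1428765_at read 908 and 1077 in the pools, against 2157 in wild type, with log2 differences of -1.64 and -1.22. Set 1429256_at read 1185 and 2064 in the pools, against 3361 in wild type. Set 1452905_at read 1250.0 and 2414 in the pools, against 3638 in wild type, and at -0.96 its pool 2 difference was the only 1 of the 6 short of 2-fold. Source sequence did not group them by size: 1428764_at, 1428765_at and 1452905_at share theirs and had mean log2 differences of -2.43, -1.43 and -1.53. As deposited, pool 2 read 46.5% to 66.3% of wild type over the 6 sets, and only 1428764_at and 1428765_at were at or under 49.9%. The quantile normalization moved the median log2 difference of the Meg3 sets on B to -1.79, against -1.37 without it.

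Rian, which follows Meg3 in the imprinted region and carries small nucleolar RNAs, was lower in both pools on its 4 probe sets, with smaller differences. Set 1427580_a_at on A read 124 and 221 in the pools, against 380.5 in wild type, with a mean log2 difference of -1.08. Set 1428055_at read 20.1 and 78.6 in the pools, against 135 in wild type. Set 1452899_at read 156 and 110.3 in the pools, against 265 in wild type, and was the only set on A with pool 2 below pool 1. On B, 1440001_at read 168 and 252 in the pools, against 338 in wild type (-0.90 and -0.42). No Rian set was 2-fold lower in both pools.

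Mirg, the microRNA host at the far end of these 3, gave no common direction. Its set 1440097_at on B read 448 and 418 in the pools, against 517 in wild type, a mean log2 difference of -0.35. The other set, 1457030_at, read 584 and 436 in the pools, against 313 in wild type, a mean of 0.62 ± 0.25 (SD, n = 2 pools). The first Mirg set was therefore below wild type in both pools and the other above it in both, and array type A carried none. Along the region the medians on B were -1.79 for Meg3, -0.66 for Rian and 0.14 for Mirg, and after scaling on the shared probe sets they were -1.96, -1.23 and -0.36.

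Miat was read by 2 sets on B. Set 1455325_at read 883 and 1107 in the pools, against 1323 in wild type, or 66.7% and 83.7% (log2 differences -0.91 and -0.43). Set 1458903_at read 12.4 and 57.1 in the pools, against 82.5 in wild type, and was below the filter. Both were lowest in pool 1, and in both the gap between the pools was larger than that between pool 2 and wild type. Snhg11 was read by 1 set on each array type, with the same order. On A, 1434292_at read 233 and 535 in the pools, against 1209.6 in wild type (-2.36 and -1.22). On B, 1437311_at read 1040.0 and 1698 in the pools, against 2552 in wild type (-1.72 and -0.85).

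Pool 1 was the lower of the pools in nearly all of these readings. On A, 14 of the 15 sets had the order pool 1, pool 2, wild type from low to high, against 25.2% of all kept sets. On B it was 11 of 14, against 25.2% of all. In pool 1 alone 14 of 15 sets on A and 9 of 14 on B were at least 2-fold lower than wild type, against 12.1% and 12.7% of all. In pool 2 alone the counts were 11 of 15 and 5 of 14, against 5.05% and 4.85%. Pool 1 is also the pool without the acclimatization remark, and its part in this order cannot be told apart from the pool's own RNA.

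**Figure D2:**
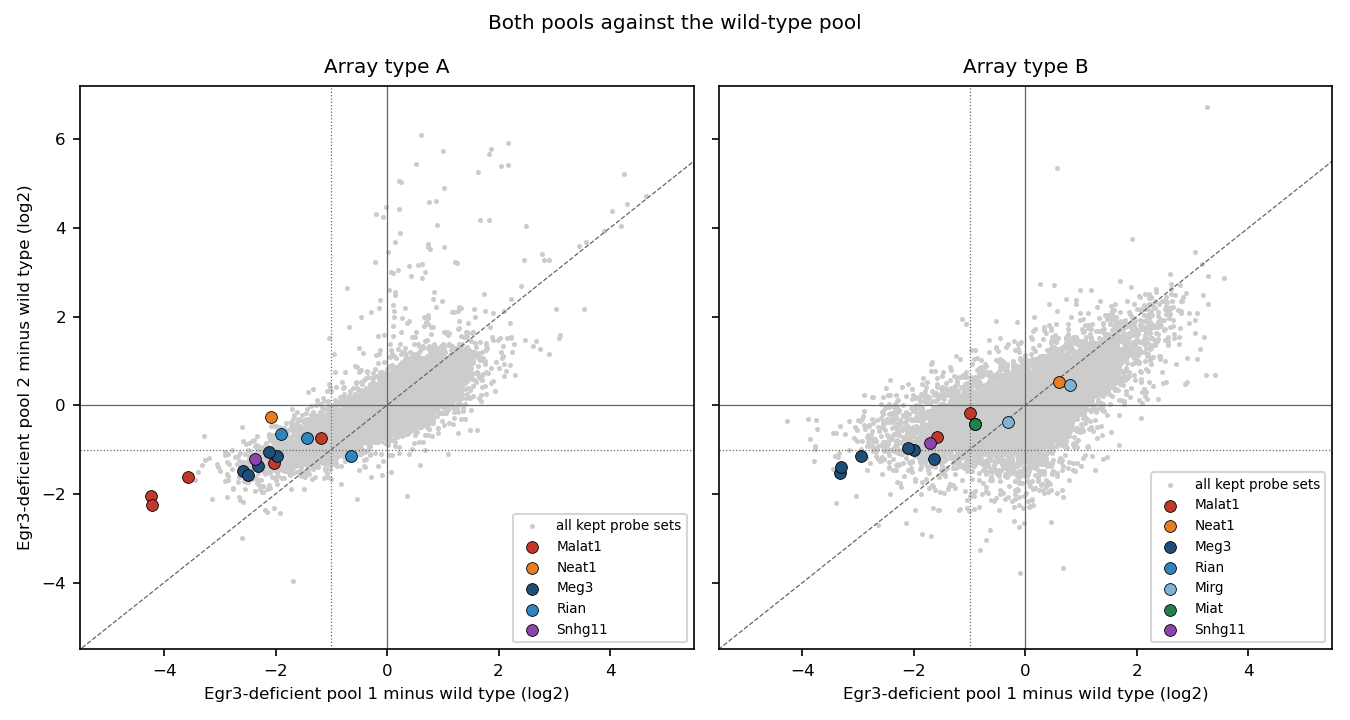
Log2 difference from the wild-type pool in pool 1 (horizontal) and pool 2 (vertical) for every kept probe set (grey) and for those of the 7 RNAs (coloured) on array types A and B, with dotted lines at 2-fold lower and the dashed diagonal where both pools agree. The Malat1 sets 1438403_s_at, 1418189_s_at and 1418188_a_at on A lie at the lower left edge, the second at -4.24 and -2.05, and most coloured points lie above the diagonal, where pool 1 is lower than pool 2. Rian on B lies under the Miat point, at -0.90 and -0.42.

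The probe sets of other genes with the most similar pair of pool differences were looked up for the Malat1 and the Meg3 set of highest mean on each array type, over 3 pools, by distance in the plane of both differences. Nearest to Malat1 on A were 2 sets of Dynlt3, a dynein light chain gene, at distances of 0.95 and 1.1, then Ogn, Slc12a2 and Taok1. The first Dynlt3 set read 142 and 539.8 in the pools, against 1645 in wild type. Meg3 on A had closer neighbours, Tmem30a (distance 0.015), Hnrnpdl, Dnajb4, Peg3 and Zranb2. Peg3, a paternally expressed imprinted gene, read 389 and 849 in the pools, against 1643 in wild type. On B the nearest to Malat1 were Fra10ac1 (0.013), Luc7l2, Akap9, Mdga2 and Smg1, and the nearest to Meg3 were Cplane1 (0.15), Ube3a, Dzip3, Smg1 and Pnisr. Ube3a, a ubiquitin ligase gene, read 12.4 and 129 in the pools, against 305 in wild type.

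The genes around these RNAs were described next, from lists that had been drawn up with earlier results known. Across all genes on A limma with Benjamini-Hochberg adjustment called 0 probe sets lower (0.0%) at an adjusted p of 0.05, where 1730 had an unadjusted p under 0.05, and 9 higher (0.0663%). With median centring in place of quantile normalization the same fit called 597 lower and 227 higher on A. On B it called 82 lower (0.607%) and 138 higher (1.02%). With 1 residual degree of freedom the lone wild-type pool is assumed to vary like the other pools.

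Protein components of nuclear speckles, where Malat1 gathers, were mostly lower on A: 9 of the 14 kept genes in both pools and 3 higher in both, with a median log2 difference of -0.77. Pnn, which encodes the splicing protein pinin, read 33.9 and 50.7 in the pools, against 241 in wild type. Srsf5, a serine-arginine splicing factor, read 385 and 766 in the pools, against 2072 in wild type (mean log2 difference -2.04, SE 0.40, limma adjusted p = 0.161). Luc7l3 (-1.85) and Sf3b1 (-1.30), also splicing factors, were the other genes at least 2-fold lower in both pools. On B, 5 of 6 kept genes were lower in both pools (median -0.72, or -0.40 with median centring and -1.15 with shared scaling). That count includes Srrm1, which was only slightly lower after quantile normalization (-0.07 and -0.04). As deposited, Srrm1 on B read 1128 and 1015 in the pools, against 946 in wild type. Son, a scaffold of the speckle, was higher there at 289.9 and 378 in the pools, against 188 in wild type, but on A it read 222 and 223, against 429. None of these genes passed the test on either array type, but with median centring 3 of the 14 on A did, Pnn, Srsf5 and Luc7l3, and with shared scaling Pnn did.

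Paraspeckle proteins, the partners of Neat1, were less uniform. On A, 7 of 13 kept genes were lower in both pools and 5 were higher, with a median of -0.25. Tardbp, which encodes TDP-43, read 106 and 119.6 in the pools, against 279 in wild type. The core paraspeckle gene Pspc1 read 97.3 and 84.5, against 189, and Matr3, the gene of matrin 3, read 488 and 935, against 1339. Dazap1 lay in the other direction, at 127 and 126 in the pools, against 83.0 in wild type. On B, 4 of 8 were lower in both and 2 higher (median -0.50, or -1.07 with shared scaling), with Cpsf6, a factor of 3′ end processing, at 362 and 675, against 1137 in wild type (mean log2 difference -1.39, SE 0.42, limma adjusted p = 0.0742). None passed the test, though Cpsf6 did with the filter at the 60th percentile, with a pseudocount of 64 or with a robust prior.

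Protein genes beside the RNAs did not share their direction. Of the neighbours of Malat1 and Neat1, 0 of 4 kept genes on A and 0 of 3 on B were lower in both pools, while 3 on each array type were higher in both, with medians of 0.36 on A and 0.84 on B (0.33 with shared scaling). Frmd8, for example, read 251 and 196 on A in the pools, against 161 in wild type, and Cdc42ep2, an effector of the GTPase Cdc42, read 1352 and 1150.4 on B, against 655. Dlk1, the paternally expressed ligand gene of the Meg3 region, read 78.7 and 73.6 on A in the pools, against 54.1 in wild type. On B it read 529.8 and 372, against 278, with log2 differences of 0.84 and 0.41. Dlk1 was thus higher in both pools on both array types, without passing the test (limma adjusted p = 0.397 on A and 0.574 on B).

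Splicing factors known as partners of Miat were represented by 3 kept genes on each array type, with 2 lower and 1 higher in both pools on A and 1 of each on B. The higher 1 on B was Sf1, which was only slightly higher after quantile normalization (0.07 and 0.04). As deposited, Sf1 on B read 12087 and 8654 in the pools, against 5624 in wild type. Qk, which encodes the RNA-binding protein quaking, fell on B, where it read 376 and 965 in the pools, against 1513 in wild type (mean log2 difference -1.54, SE 0.43, limma adjusted p = 0.0471). On A a Qk set read 698 and 856, against 1166 in wild type, and did not pass. Sf1, splicing factor 1, read 264 and 239 on A in the pools, against 180.5 in wild type. Srsf1, a serine-arginine splicing factor that is also counted among the speckle genes above, read 293 and 308 on A, against 499. The call on Qk lies just inside the threshold, and it was lost without quantile normalization, without the filter, without the intensity trend, with median centring, with a pseudocount of 1 and with shared scaling.

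Other long noncoding RNAs, 54 by name, gave no single direction. Of the 10 kept on A, 7 were lower in both pools and 2 higher (median -0.56), and of the 25 kept on B, 14 were lower and 9 higher (median -0.15, or -0.77 with shared scaling, which moves the median of all kept sets to -0.62). Oip5os1, also called Cyrano, fell on B, at 1431 and 2651 in the pools, against 3727 in wild type (mean log2 difference -1.42, SE 0.35, limma adjusted p = 0.025). It was the only 1 of the 25 past the threshold, and the call was lost under the same settings except the pseudocount of 1. On A it read 35.4 and 57.0, against 130 in wild type, and did not pass. Tug1 read 57.8 and 135 on A in the pools, against 336 in wild type (mean -1.67, limma adjusted p = 0.161), and it passed with median centring. Norad read 1520.4 and 1889 on A, against 2811, and another of its kept sets had log2 differences of -2.34 and -1.75. The imprinted antisense RNA Kcnq1ot1 read 193 and 377 on B, against 657, and Sox2ot, which overlaps the Sox2 gene, read 376 and 571, against 896. Pantr1 was higher on B, at 882 and 819.8 in the pools, against 302 in wild type (mean 1.37, limma adjusted p = 0.0738), and passed with the stricter filter or a robust prior. The small nucleolar RNA host gene Snhg18 was also higher on B, at 409.6 and 448, against 241. Snhg1, another host gene, was lower on A, at 60.6 and 70.9, against 109, so host genes of small nucleolar RNAs lay on both sides of wild type.

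**Figure D3:**
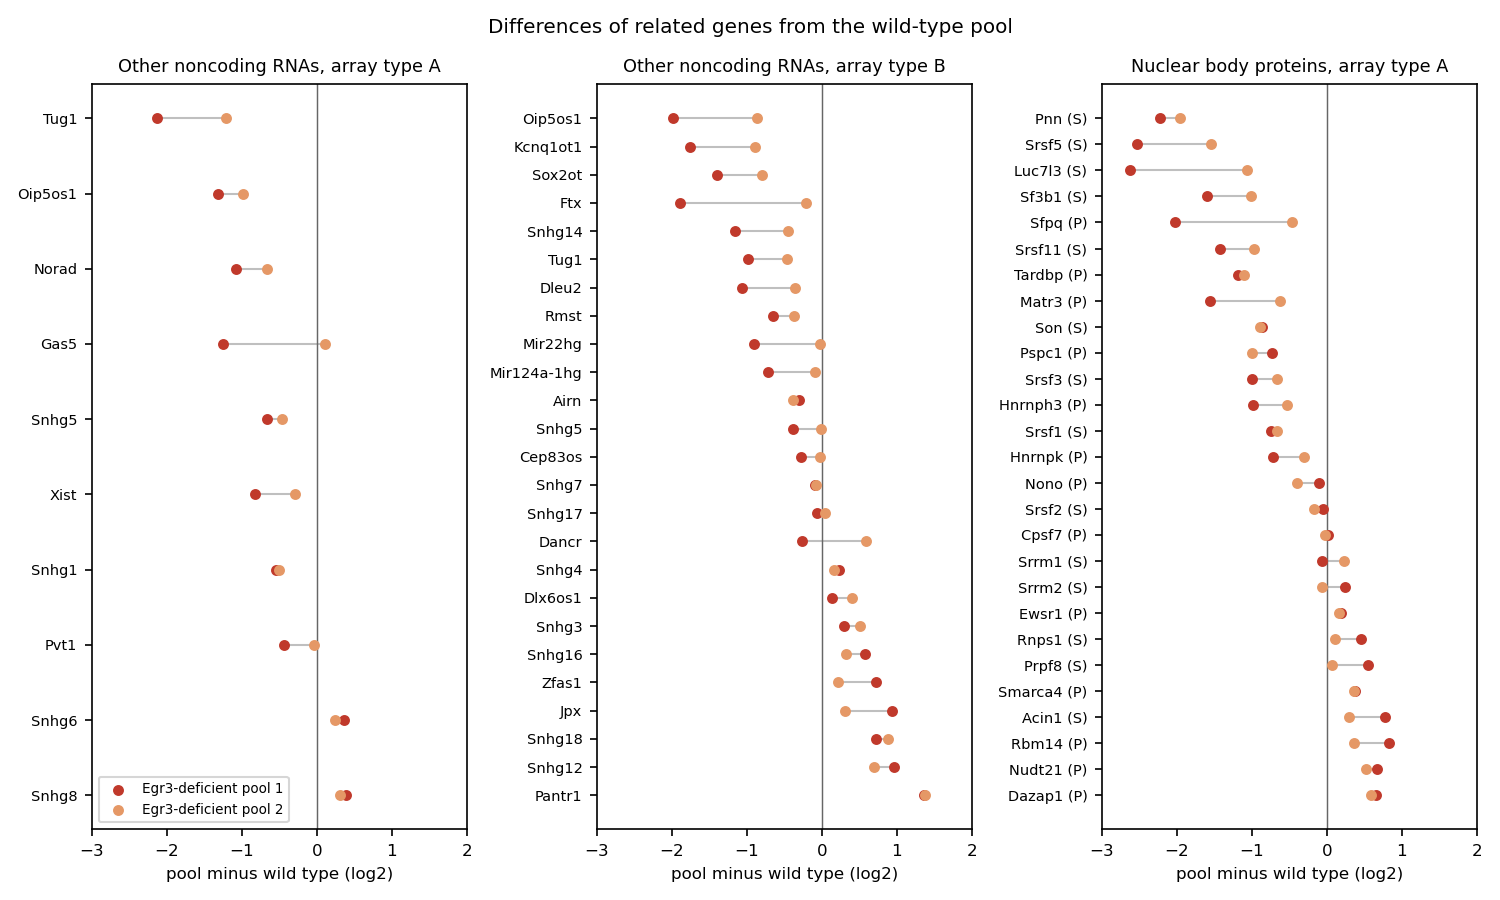
Log2 difference from the wild-type pool in pool 1 (red) and pool 2 (orange) for the other long noncoding RNAs on array types A and B and for the proteins of nuclear bodies on A, with (S) for nuclear speckles and (P) for paraspeckles, 1 kept probe set a gene. Pnn, Srsf5, Luc7l3, Sf3b1 and Tardbp lie below -1 in both pools, Tug1 is the only other noncoding RNA plotted for A that does so, and Pantr1 on B is the only one above 1 in both.

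Other features of the same RNA also differed between the pools, not all of them in the pool order of the 7 RNAs. On A the probe set for the 5′ end of the 18S ribosomal RNA control read 43.7 and 136 in the pools, against 3068 in wild type, while its 3′ set read 99.3 and 148, against 151. The 3′ to 5′ ratio was therefore 2.27 and 1.08 in the pools, against 0.0493 in wild type, and on B it was 1.43 and 0.945, against 0.0605. Other controls differed less: on A the ratio was 0.858 and 0.975 for Gapdh, against 0.734 in wild type, and 1.37 and 1.48 for actin, against 1.36. For the transferrin receptor on A it was 1.55 and 2.29, against 1.56. On B the ratio was higher in both pools for Gapdh, at 0.923 and 0.805, against 0.755 in wild type. It was also higher there for the transferrin receptor, at 2.57 and 2.54, against 2.11. Actin on B was lower in the pools, at 1.4 and 1.47, against 1.52. Skeletal muscle markers were higher in both pools for 11 of 11 genes on A, 7 of them past the limma threshold but 0 without the filter, with a summed intensity of 4540.2 and 5533 in the pools, against 161 in wild type. Mylpf, a fast myosin light chain gene, read 594 and 608, against 8.41. Liver genes on A were higher in both pools for 4 of 5, with sums of 374 and 9856, against 109.8. None of them passed the test, though all 5 did with median centring. On B the liver gene Ttr read 584 and 6739, against 50.9 (limma adjusted p = 2.23e-07). That call was lost without quantile normalization, without the filter, without the intensity trend, with a robust prior and with shared scaling. Neuron markers, which define the labelled tissue, were present on A at sums of 13749 and 14418, against 17949 in wild type. Of the 11 genes, 6 were lower and 5 higher in both pools (median -0.14). The lower ones differed more, with mean log2 differences of -1.68 for Map2, -0.96 for Snap25 and Slc17a6 and -0.94 for Nefm. The largest among the higher was 0.55, for Slc32a1. None passed the test on either array type. Map2 did pass on A with median centring, and on B with a pseudocount of 64 or the filter at the 60th percentile. On B their sums were 23755 and 25002 in the pools, against 21955 in wild type. After quantile normalization 3 of the 7 kept genes there were lower and 3 higher in both pools (median -0.03). Oligodendrocyte markers summed to 23067 and 28822 on A, against 34889, but 2 of the 6 genes were lower in both pools and 1 higher, with a median log2 difference of -0.13, and the single gene on B, Mobp, read 13383 and 8695, against 6477. Astrocyte markers on A were lower in both pools for 2 of 6 and higher for 2, with a median of -0.02. On B their sum was 11946 and 12440.4 in the pools, against 12317 in wild type. Of the 4 there, 2 were called lower, the water channel gene Aqp4 and the glutamate transporter gene Slc1a2. Aqp4 read 356 and 434, against 1239 (limma adjusted p = 0.0115). Slc1a2 read 3513 and 7489, against 7384, so its deposited pool 2 value lay above wild type. After quantile normalization its log2 differences were -1.88 and -0.48. On A Aqp4 read 451 and 699, against 1774, and Slc1a2 read 86.2 and 66.7, against 78.7. Both calls on B were lost without quantile normalization, without the filter, without the intensity trend, with median centring and with shared scaling. Microglial markers summed to 2169.9 and 2070.2 on A, against 1821, and endothelial markers to 427 and 473, against 439. The part of the 18S signal, of RNA quality and of other tissues in the differences of the 7 RNAs was not tested.

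Array scaling bore on B more than on A. Over the 100 probe sets carried by both array types, the median fold over wild type was 1.08 in pool 1 and 1.07 in pool 2 on A, but 1.92 and 1.45 on B. Scaling B on these sets moved the median difference of all its kept probe sets to -0.62. Malat1 on A changed little, with medians from -2.66 to -2.51 over 4 normalizations, while on B it ran from -1.41 to -0.68. Rian ran from -1.23 to -0.50 on B. Meg3 had a median of -1.85 to -1.69 on A and of -1.96 to -1.20 on B, and Snhg11 ran from -1.79 to -1.61 on A and from -1.52 to -0.76 on B. Mirg on B ran from -0.36 to 0.38 and changed sign.

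**Figure D4:**
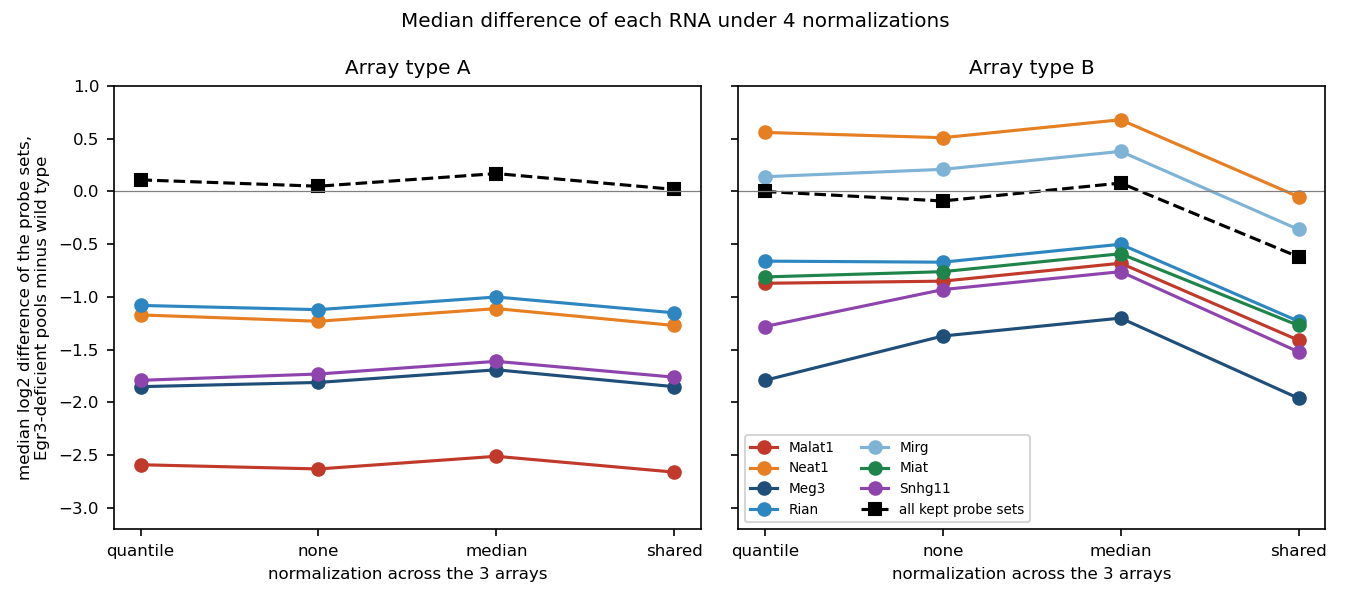
Median log2 difference of each RNA's probe sets, mean of both pools labelled Egr3-deficient minus wild type, under quantile normalization, the deposited scaling alone (none), median centring and scaling on the 100 shared probe sets, with all kept probe sets as black squares. On A the lines are nearly flat, and on B all of them drop under shared scaling, Neat1 to -0.05 and all kept probe sets to -0.62.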

How the data were processed

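Per the file headers, the deposited values are 1 number for each probe set and array. Their range showed them to be intensities on a linear scale, and the authors' scaling left every array with a mean, without the outer 2% at either end, between 150.019 and 150.063. Summary program, build and detection calls: not given in the sources used here.

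Control probe sets (64 on each array type) were left out. Symbols came from the platform annotation, updated through the gene identifier: 20380 probe sets on A and 14661 on B had 1 symbol, 691 and 245 several, and 1555 and 7605 none. Values were taken as log2(intensity + 16) and quantile normalized across the 3 arrays of a type (R 4.3.3, limma 3.58.1, Python 3.11.15). Probe sets with a mean at or above the 40th percentile were kept, at an intensity of about 36.7 on A and 55.9 on B. limma's lmFit and eBayes with an intensity trend were run over all kept probe sets, with Benjamini-Hochberg adjustment within each array type. The fit was also run on simulated data. There all probe sets and all 3 arrays of a type had the same spread, so it cannot show how the fit holds for pools of unequal spread. Precision is limited by the number of arrays, and p-values measure only the spread between the pools. That spread enters the limma SEs and p-values mainly as a trend over all kept probe sets, and little as each set's own. The trend had a weight of 6.54 prior degrees of freedom for A and 52.3 for B, against 1 residual. An SE for a single gene, above all on B, is thus not an estimate from that gene's own pools. No pairing of pools is given.

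The 7 RNAs and the gene lists were chosen with earlier results of these data known. From each list of related genes the text names genes past the threshold, then up to 4 with the largest difference shared by both pools, 1 probe set a gene. The marker lists of cell types and tissues are given mainly as counts and sums, and not every marker past the threshold is named. For likeness it names the 5 nearest probe sets of other genes. Genes given outside that rule were chosen after their values were seen. They are Egr3, Son on A, Srrm1 on B, a further Norad set and the single marker genes. Intensities of different probe sets were not set against each other. Alternatives were the normalization, the pseudocount, the filter, the variance model and leaving out each pool.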

Additional observations from a re-analysis of the deposited data

How the results depend on the processing

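Of the 30 probe set differences of the 7 RNAs, 28 were below 0 under each normalization, pseudocount, filter and single pool set out at the start and 29 after scaling on the shared probe sets, which was chosen after seeing the data. That scaling turned the Neat1 set 1442881_at on B to -0.05 and the median of the Miat partners on B to -0.45. With pool 2 alone (pool 1 left out) that median was -0.16, and with pool 1 alone 0.07. Without the filter the median of the other long noncoding RNAs on B became 0.02. On A the count of the RNAs' probe sets at least 2-fold lower in both pools stayed at 9 or 10, or was 11 in pool 2 alone and 14 in pool 1 alone. On B it was 1 without quantile normalization, 0 with median centring, 8 with shared scaling, and 5 to 9 in single pools. Among all probe sets at least 2-fold lower, A gave 233 with a pseudocount of 64 and 686 to 1647 in single pools. B gave 134 with median centring, 114 with a pseudocount of 64, 800 without the filter, 147 with the filter at the 60th percentile, 1661 with shared scaling and 655 to 1710 in single pools. limma called 1 lower on A without quantile normalization, 597 with median centring, 1 with a pseudocount of 64, 1 with a robust prior and 17 with shared scaling. Its higher calls on A were 227 with median centring, 0 without the filter and 17 with shared scaling. On B it called 0 lower without quantile normalization, 22 with median centring, 47 with a pseudocount of 1, 181 with 64, 0 without the filter, 195 with the stricter filter, 0 without the intensity trend, 170 with a robust prior and 0 with shared scaling. Higher calls on B were 2 without quantile normalization and 0 without the filter, without the trend and with shared scaling. The cause was not tested. Leaving out a pool leaves no residual degree of freedom, so limma was not run there. No paired analysis was possible because the labels number no pairs and wild type has 1 pool. Signal near the filter intensity limits the dim sets, such as Miat 1458903_at.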
